A study of Macaca fascicularis with 64 samples.

Results

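The heart and the limb or trunk musculature are the striated muscles of the body, and in newborn wild-type cynomolgus monkeys (Macaca fascicularis) the RNA of the 2 tissues was compared gene by gene. Of the 64 libraries of the series, 8 were used for this comparison: 2 libraries each from the heart of the animals titled WT2 and WT3, and 2 libraries each from the muscle of the same animals. The series as a whole concerns SIRT6, a nuclear deacetylase of the sirtuin family, and holds tissues of newborns with the genotype labels wild type or SIRT6 mutant. The 8 libraries of heart and muscle from the mutant newborns titled KO2 and KO3 were used at the end, as a second pair of animals in which the same comparison could be made, and the alleles they carry are not named in the labels. All these libraries are from the newborn stage, no treatment is given, and the labels name the tissues heart and muscle without a chamber or an anatomical site, so atrium and ventricle, or muscles of different fibre make-up, may be mixed in unknown shares. The labels do not say how the paired libraries of an animal were obtained, and each pair was averaged, which leaves 2 animals per tissue in every test.

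Cardiac and skeletal muscle build the same contractile lattice from different members of the same gene families. Myosin heavy and light chains, actins, troponins, calcium pumps and calcium channels each exist as cardiac, slow skeletal and fast skeletal isoforms, and some slow skeletal isoforms are also the ventricular ones. Skeletal fibres are triggered by a nerve through acetylcholine receptors, and their calcium release channel is opened by direct contact with the voltage sensor of the membrane. Cardiac myocytes pass their action potential from cell to cell through gap junctions in the intercalated disc, and calcium entering through the membrane opens their release channel. Around birth the heart moves from the use of glucose and lactate towards fatty acids, while skeletal muscle matures from embryonic and neonatal myosins to adult slow and fast fibres.

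Expression was deposited as FPKM (mapped fragments scaled by gene length and by library size), so the levels of different genes can be set side by side per length, but the read depth behind each value is unknown. Relative depth, read from the steps between low values, ranged from 0.54 to 0.88 in the hearts and from 0.85 to 1.04 in the muscles, relative to the first WT3 muscle library. Across genes, Pearson's r of log2(FPKM + 1) was 0.989 to 0.994 between repeat libraries, 0.938 to 0.945 between animals for the same tissue and 0.785 to 0.817 between tissues. These are values across genes, which are not independent replicates. Both tissues matched their labels: the cardiac troponin gene TNNI3 stood at 5370 and 6250 FPKM in heart and under 1.01 FPKM in each muscle library, and the fast skeletal light chain gene MYLPF was listed at 0 in every heart library. Actin ACTA1 alone took 6.95% to 7.99% of the summed FPKM in muscle, and the summed FPKM was 414176 to 463305 in heart and 527074 to 587030 in muscle.

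Of 12247 genes with a mean of 1 FPKM or more, 1333 (10.9%) differed between heart and muscle in the limma test at a Benjamini-Hochberg adjusted p under 0.05. Of these, 637 (5.2%) were higher in heart and 696 (5.68%) were lower in heart. Below, a log2 change is heart minus muscle on the log2(FPKM + 1) scale with the median over all genes tested, 0.105, taken off. SE is its standard error from limma with n = 2 animals per tissue. The variance behind SE is moderated towards that of genes at a similar level, so SE is not the gene's own spread alone. A gene is called higher or lower only where the adjusted p is under 0.05. A value alone in brackets after the levels of a gene is its log2 change. Pairs of values are animal means in the order WT2, WT3 unless libraries are named. Every heart library stood above every muscle library in 24.6% of the genes tested, and below in 17%. Scaling all libraries to the same FPKM sum moved the median log2 change to 0.45 and the calls to 1322 higher and 572 lower, which is 69.8% higher against 47.8% in the fit used here. The fit used here had no term for the animal. A replicate block for the animal gave 1310 higher and 1109 lower, including all 1333. Leaving out 1 animal in 1 tissue gave 319 higher and 339 lower without the WT2 heart, 308 and 263 without the WT3 heart, 192 and 412 without the WT2 muscle, and 163 and 437 without the WT3 muscle. In these bulk samples, fewer cells of a type and less RNA per cell cannot be told apart.

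The genes described below come from 47 lists and 31 isoform families with 771 members. The table holds 756 of them, 666 passed the level filter, and 96 were higher and 163 lower in heart. Read against the 5.2% and 5.68% of all genes, these counts describe lists that were chosen because they hold genes known to mark the 2 tissues. Of the 63 counts above 0 (1 per list and direction), 37 to 40 were lower by over 1.5 times when 1 animal was left out in 1 tissue, and 50 were with no level filter. The replicate block raised 17 of the 63 by over 1.5 times and gave calls in 8 of the 31 counts at 0, and scaling to the same sum raised 12 and gave calls in 5.

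The sarcomeric actins divided by tissue. ACTC1, the cardiac alpha-actin, had 8440 and 8729 FPKM in the WT2 heart libraries and 4519 and 4552 in the WT3 heart libraries. In muscle, ACTC1 had 78.7 and 79.5 FPKM in the WT2 libraries and 263 and 274 in the WT3 libraries. All 4 heart libraries lay above all 4 muscle libraries, and the log2 change was 5.30 ± 0.57 (SE), adjusted p = 0.00108. ACTA1, the skeletal alpha-actin, had 934 and 2152 FPKM in heart against 46164 and 36891 in muscle, a log2 change of -4.97 ± 0.39 (SE), adjusted p = 0.000281. As a share of the FPKM of both genes, ACTC1 made up 90.2% and 67.8% in heart against 0.171% and 0.723% in muscle. The WT3 heart held a larger share of skeletal actin mRNA than the WT2 heart, with ACTA1 at 32.2% against 9.79% in WT2.

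The myosin heavy chains, the motors of the thick filament, showed the same division with a different pattern between animals. MYH6, the fast atrial heavy chain, had 27.5 and 26 FPKM in the WT2 heart libraries and 407 and 424 in the WT3 heart libraries. In muscle, MYH6 had 5.69 and 5.36 FPKM in the WT2 libraries and 3.68 and 4.28 in the WT3 libraries. The hearts lay above the muscles, and the 2 hearts were far apart, with a log2 change of 4.13 ± 1.05 (SE), adjusted p = 0.044. The gene that lies next to MYH6 in the RefSeq gene table carries only the identifier LOC102118628 and was the most abundant heavy chain of the heart, at 1689 and 1440 FPKM in heart against 769.9 and 1093 in muscle. Its log2 change, 0.66 ± 0.28 (SE), adjusted p = 0.143, did not pass. Over the 7 heavy chains of the family as listed, its share of the heavy chain FPKM was 97.4% and 77.3% in heart against 25.9% and 39.7% in muscle. With MYH7B and MYH13 counted too, a choice made after seeing the data, this share was 87.6% and 65.3% in heart against 25.6% and 39.3% in muscle. Adult fast heavy chains filled most of the rest of the 7 in muscle: MYH1 took 41.2% and 20.7%, MYH2 27.9% and 22.4% and MYH4 1.28% and 14.9%. MYH2 had 0.289 and 0.434 FPKM in the WT2 heart libraries and 0.128 and 0.192 in the WT3 heart libraries. In muscle, MYH2 had 842 and 814 FPKM in the WT2 libraries and 623 and 612 in the WT3 libraries. The gene was lower in heart, with a log2 change of -9.26 ± 0.31 (SE), adjusted p = 5.37e-06. MYH1 had 3.19 and 2.2 FPKM in heart against 1224 and 571 in muscle and MYH4 0.139 and 0.108 FPKM in heart against 38 and 409 in muscle, and both were lower in heart, with log2 changes of -7.95 and -6.92. MYH4, the fastest of these, was higher in level in the WT3 muscle than in the WT2 muscle, while MYH1 ran the other way. MYH7B, an ancient slow-type heavy chain, had 194 and 344 FPKM in heart against 8.08 and 18.7 in muscle and was higher in heart, with a log2 change of 4.17 ± 0.46 (SE), adjusted p = 0.00116.

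The light chains that sit on the myosin neck also divided by tissue. MYLPF, the fast skeletal regulatory light chain, was listed at 0 in all 4 heart libraries, against 11170 and 5685 FPKM in muscle (adjusted p = 3.47e-06). MYL2, the regulatory light chain shared by ventricle and slow fibres, had 10367 and 6062 FPKM in heart against 5873 and 6118 in muscle, and its log2 change of 0.30 ± 0.30 (SE), adjusted p = 0.454 did not pass. MYL7, the atrial regulatory light chain, had 697 and 788 FPKM in the WT2 heart libraries and 691 and 687 in the WT3 heart libraries. In muscle, MYL7 had 0.827 and 1.44 FPKM in the WT2 libraries and 1.18 and 1.5 in the WT3 libraries. No muscle library reached 1.51 FPKM, and the log2 change was 8.23 ± 0.29 (SE), adjusted p = 5.37e-06. MYL7 stood at 6.68% and 10.2% of the regulatory light chain FPKM of the heart, with MYL2 at 93.3% and 89.8%. Among the essential light chains, MYL4, of atrium and fetal muscle, had 1050 and 562 FPKM in heart against 1.94 and 1.48 in muscle with a log2 change of 8.07 ± 0.37 (SE), adjusted p = 1.85e-05. MYL3, of ventricle and slow fibres, had 7585 and 4667 FPKM in heart against 1396 and 2145 in muscle and was also higher in heart, with a log2 change of 1.68 ± 0.33 (SE), adjusted p = 0.0152. MYL1, the fast skeletal essential light chain, had 36.4 and 3.47 FPKM in heart against 11475 and 5734 in muscle, a log2 change of -9.40 ± 0.87 (SE), adjusted p = 0.000651. The WT2 heart held more MYL1 than the WT3 heart, in both of its libraries.

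All 3 subunits of troponin, the calcium switch of the thin filament, differed by isoform. TNNI3, the cardiac inhibitory subunit, had 5039 and 5701 FPKM in the WT2 heart libraries and 6293 and 6208 in the WT3 heart libraries. In muscle, TNNI3 had 1.01 and 0.688 FPKM in the WT2 libraries and 0.123 and 0.598 in the WT3 libraries. Its log2 change, 11.74 ± 0.31 (SE), adjusted p = 3.47e-06, was the largest towards heart among the 12247 genes tested. TNNT2, the cardiac tropomyosin-binding subunit, had 2012 and 2150 FPKM in heart against 2.88 and 1.53 in muscle, a log2 change of 9.27 ± 0.32 (SE), adjusted p = 5.37e-06. Towards muscle, TNNC2, the fast calcium-binding subunit, had 0.461 and 0.925 FPKM in the WT2 heart libraries and 1.73 and 0.637 in the WT3 heart libraries. In muscle, TNNC2 had 7936 and 7697 FPKM in the WT2 libraries and 7565 and 7572 in the WT3 libraries. Its log2 change was -12.10 ± 0.29 (SE), adjusted p = 3.47e-06. TNNI2 and TNNT3, the fast inhibitory and tropomyosin-binding subunits, stood at 1.9 and 2.53 FPKM in heart against 4592 and 3692 in muscle (TNNI2) and 35.8 and 28.4 FPKM in heart against 3744 and 3207 in muscle (TNNT3), with log2 changes of -10.52 and -6.83. TNNC1, the calcium-binding subunit shared by heart and slow fibres, had 4480 and 2465 FPKM in heart against 3402 and 4408 in muscle and did not pass (log2 change -0.33 ± 0.33 (SE), adjusted p = 0.739). It was almost the only troponin C of the heart, at 99.98% and 99.95% of the troponin C FPKM, and 30.3% and 36.8% of that of muscle.

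**Figure D1:**
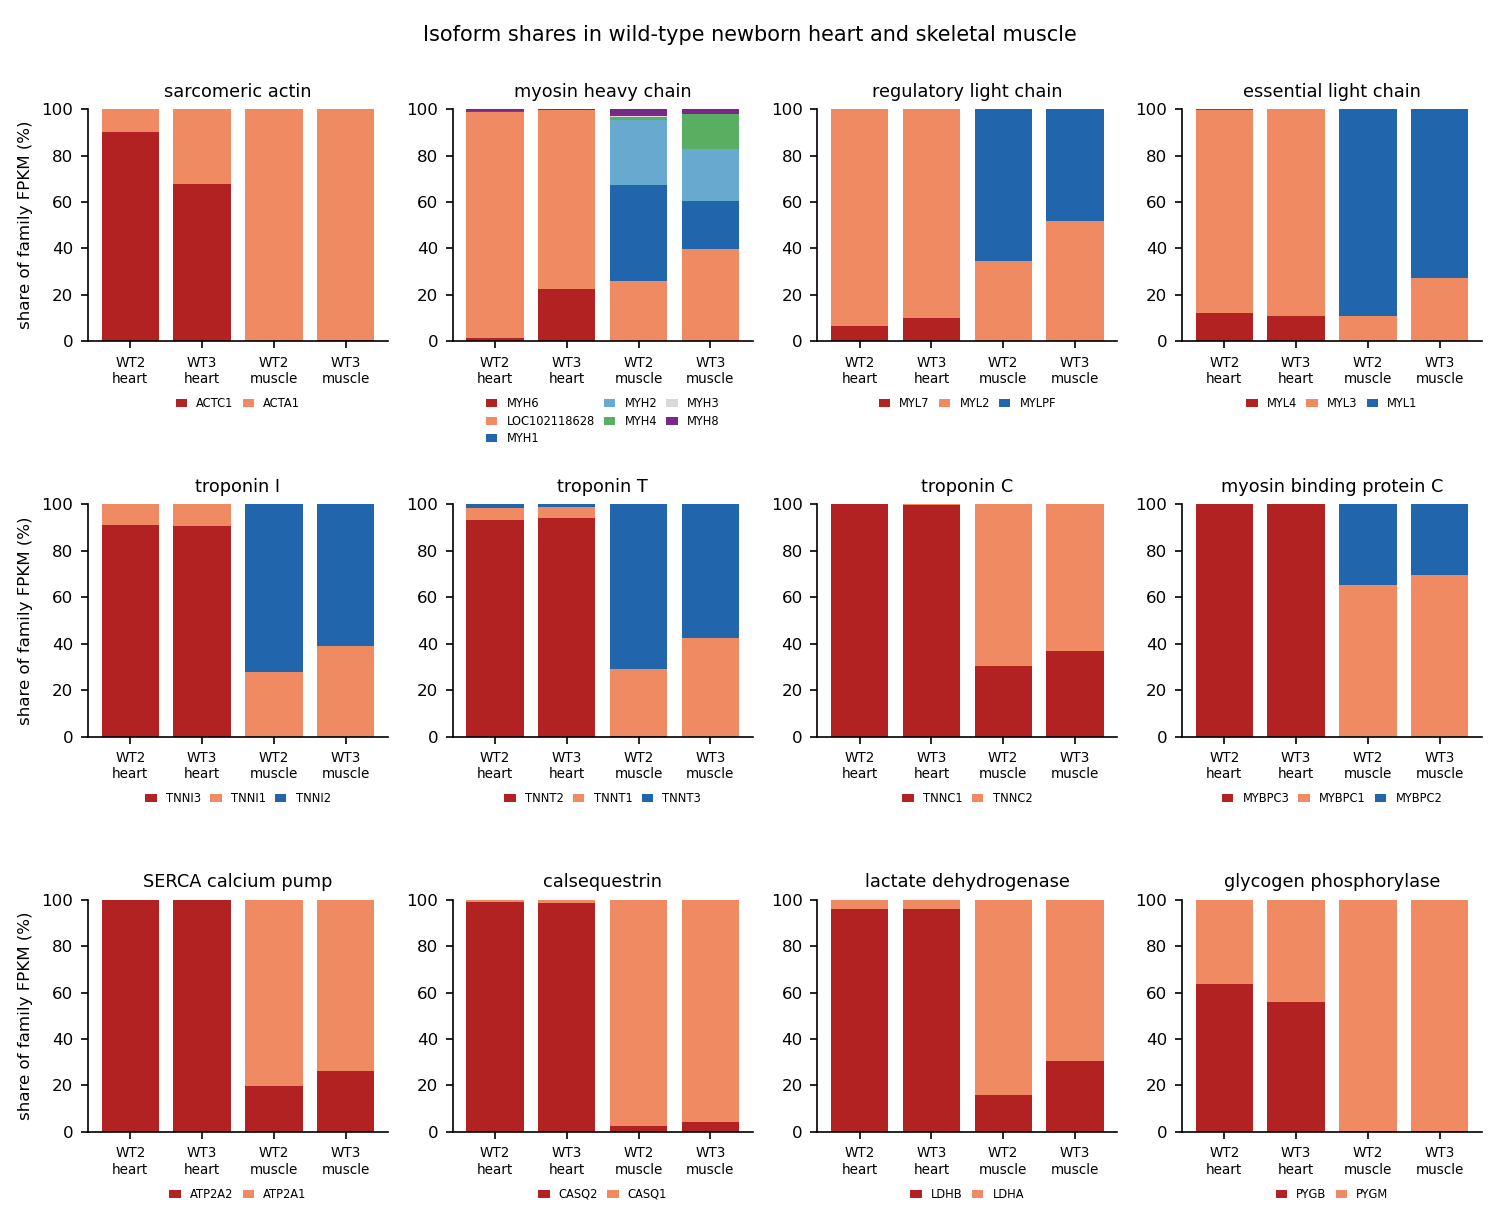
Stacked bars give the share (percent) of the summed FPKM of an isoform family taken by each of its genes, for 12 families made up of the genes in each legend, with 1 bar per animal and tissue (2 heart bars at left and 2 muscle bars at right of each panel). ACTC1 fills 90.2% and 67.8% of the actin bar in the WT2 and WT3 hearts and under 1% in the muscles, and LDHB fills over 96% of the lactate dehydrogenase bar in the hearts against 15.7% and 30.7% in the muscles.

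Of the 26 fast skeletal sarcomere genes tested, 24 were lower in heart, none was higher, and the median log2 change was -6.93. Those not called were MYOM3, at 23 and 23 FPKM in heart against 43.7 and 31.8 in muscle, and KLHL40, at 47.7 and 14.9 FPKM in heart against 64.3 and 86.7 in muscle. Nebulin, NEB, the ruler of the skeletal thin filament, had 0.00347 and 0.0156 FPKM in heart against 138 and 224 in muscle, and its cardiac relative NEBL had 73 and 58.7 FPKM in heart against 0.436 and 0.548 in muscle. The log2 change of NEB was -7.56 ± 0.34 (SE), adjusted p = 1.85e-05. That of NEBL was 5.37 ± 0.30 (SE), adjusted p = 4.67e-05. ACTN3, the Z-disc actinin of fast fibres, had 0.174 and 0.0851 FPKM in heart against 696 and 692 in muscle (log2 change -9.37), and MYBPC2, the fast myosin-binding protein C, had 0 and 0.0608 FPKM in heart against 452 and 323 in muscle (-8.64). PVALB, the calcium buffer parvalbumin, had 0.149 and 0 FPKM in heart against 387 and 75.9 in muscle. It was called lower in heart (-7.44), with the WT2 muscle above the WT3 muscle. The list kept 23 or 24 lower calls when any 1 animal was left out in either tissue.

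Of the 16 cardiac sarcomere genes tested, 11 were higher in heart and 1, MYBPHL, was lower, and the median log2 change was 4.68. MYBPHL was not called with any 1 of the 4 animal tissues left out. MYBPC3, the cardiac myosin-binding protein C, had 912 and 925 FPKM in the WT2 heart libraries and 891 and 884 in the WT3 heart libraries. In muscle, MYBPC3 had 0.0988 and 0.0537 FPKM in the WT2 libraries and 0 and 0.0445 in the WT3 libraries. No muscle library reached 0.1 FPKM, and the log2 change was 9.65 ± 0.29 (SE), adjusted p = 3.47e-06. ANKRD1, a titin-bound protein of the stressed heart, had 886 and 163 FPKM in heart against 12.7 and 5.51 in muscle, and CSRP3, a Z-disc protein of slow and cardiac muscle, had 1438 and 611 FPKM in heart against 352 and 238 in muscle. Both were higher in heart, with a log2 change of 5.23 ± 0.74 (SE), adjusted p = 0.00423 for ANKRD1, and of 1.59 ± 0.43 (SE), adjusted p = 0.0482 for CSRP3, and both were at higher levels in the WT2 heart. MYOZ2, the cardiac and slow calsarcin, had 802 and 502 FPKM in heart against 90.7 and 139.7 in muscle (log2 change 2.38), and its fast relative MYOZ1 had 20.9 and 9.84 FPKM in heart against 1796 and 1701 in muscle (-6.93). The 4 genes of the list that did not pass were MYLK3, MYOM2, LMOD2 and ALPK2. LMOD2, which lengthens thin filaments, had 221 and 64.1 FPKM in heart against 347 and 238 in muscle and was called lower in heart, with a log2 change of -1.37, with the replicate block (adjusted p = 0.0279).

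**Figure D2:**
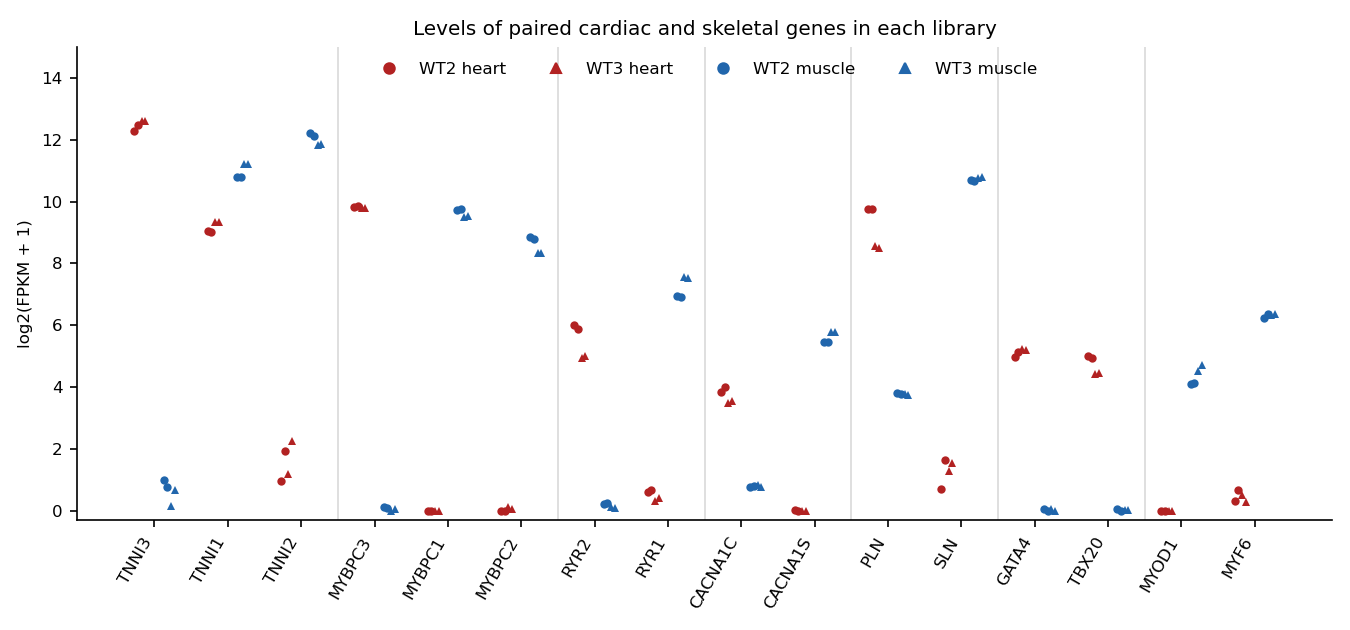
The vertical axis is log2(FPKM + 1) for 16 genes along the horizontal axis, with 1 point per library, the 4 heart libraries (red) left of the 4 muscle libraries (blue) for each gene, circles for WT2 and triangles for WT3. The TNNI3 points of the heart lie above those of the muscle, by a log2 change of 11.74, and the TNNI2 and SLN points lie below, with log2 changes of -10.52 and -9.54.

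Of 22 tested genes used by both kinds of striated muscle, 2 were higher in heart (FHL2 and HSPB7) and 4 lower (XIRP2, FHL1, PDLIM3 and CMYA5). Of all genes tested, 5.2% were higher and 5.68% lower. The other 16 of the list were not called, and 15 of the 22 had a log2 change below 0, with a median of -0.50. The count of lower genes was 2 without the WT3 heart or the WT2 muscle, 1 without the WT3 muscle, that of higher genes was 1 without the WT2 heart or the WT2 muscle or the WT3 muscle, and the higher ones numbered 4 with libraries scaled to the same sum. Titin, TTN, the giant spring of the sarcomere, had 95.6 and 49.1 FPKM in heart against 79.8 and 104 in muscle, and desmin, DES, the intermediate filament, had 1284 and 846 FPKM in heart against 2182 and 1669 in muscle, and neither passed. FHL2 and FHL1, related proteins of LIM domains alone, moved in opposite directions: FHL2 had 833 and 847 FPKM in the WT2 heart libraries and 924 and 905 in the WT3 heart libraries. In muscle, FHL2 had 9.77 and 13.2 FPKM in the WT2 libraries and 11.1 and 11.3 in the WT3 libraries. The log2 change was 6.05 ± 0.28 (SE), adjusted p = 1.85e-05. FHL1 had 384 and 215 FPKM in heart against 1921 and 1581 in muscle, a log2 change of -2.70 ± 0.34 (SE), adjusted p = 0.00312. PDLIM3, an actinin-binding protein, had 99 and 19.1 FPKM in heart against 752 and 556 in muscle (-3.96), and HSPB7, a small heat shock protein of the heart, had 639 and 386 FPKM in heart against 105 and 159 in muscle (1.83).

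Genes of slow skeletal fibres were lower in heart in 5 of 7 tested, with a median of -4.23. TNNI1, the slow inhibitory troponin that the fetal heart also uses, had 535 and 522 FPKM in the WT2 heart libraries and 640.3 and 650.4 in the WT3 heart libraries. In muscle, TNNI1 had 1787 and 1779 FPKM in the WT2 libraries and 2394 and 2357 in the WT3 libraries. TNNI1 was lower in heart, with a log2 change of -1.92 ± 0.28 (SE), adjusted p = 0.00648, and still took 8.98% and 9.36% of the troponin I FPKM of the hearts. TNNT1, TPM3 and MYL6B, the slow troponin T, slow tropomyosin and a slow light chain, had log2 changes of -4.25, -5.25 and -4.23. MYBPC1, the slow myosin-binding protein C, was listed at 0 in all heart libraries, against 852 and 732 FPKM in muscle (adjusted p = 3.47e-06). MYH14 and SMPX did not pass.

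Of 9 tested genes of developing skeletal muscle 6 were lower in heart, and the number was 3 without the WT2 heart, 2 without the WT3 heart. MYH3, the embryonic heavy chain, had 0.0311 and 0.019 FPKM in heart against 14.2 and 4.16 in muscle, and MYH8, the neonatal one, had 14.3 and 4.03 FPKM in heart against 92.1 and 54.1 in muscle. The log2 change of MYH3 was -3.22 ± 0.49 (SE), adjusted p = 0.00744. That of MYH8 was -3.13 ± 0.54 (SE), adjusted p = 0.0126. Both are small beside the adult fast chains MYH1 and MYH2 in the same muscles, at 0.151% to 0.48% and 1.96% to 3.1% of the heavy chain FPKM. In the WT2 muscle, MYH8 lay above the adult fast chain MYH4, at 3.1% against 1.28%. In the WT3 muscle it lay below MYH4, at 1.96% against 14.9%. CHRNG, which encodes the receptor subunit of fetal muscle, had 0.0375 and 0 FPKM in heart against 3.87 and 1.72 in muscle. NCAM1, an adhesion molecule of embryonic muscle, ran the other way, at 26.7 and 21.1 FPKM in heart against 4.62 and 3.38 in muscle (log2 change 2.21 ± 0.31 (SE), adjusted p = 0.00369), and was not called without the WT2 heart.

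Calcium handling differed by isoform in most of its membrane proteins. Of 18 skeletal genes tested, 17 were lower in heart, with a median of -6.28, and the exception was CAMK2B at 19.4 and 24.6 FPKM in heart against 30.2 and 45 in muscle. Of 12 cardiac genes, 6 were higher in heart and 2 lower, with a median of 1.73. RYR2, the cardiac release channel, had 62.7 and 57.9 FPKM in the WT2 heart libraries and 29.9 and 31 in the WT3 heart libraries. In muscle, RYR2 had 0.175 and 0.192 FPKM in the WT2 libraries and 0.0875 and 0.0736 in the WT3 libraries. The log2 change was 5.17 ± 0.38 (SE), adjusted p = 0.000178. RYR1, the skeletal release channel, had 0.558 and 0.295 FPKM in heart against 121 and 187 in muscle, a log2 change of -6.84 ± 0.34 (SE), adjusted p = 2.97e-05. The release channels were thus almost exclusive, with RYR2 at 99% and 99% of the ryanodine receptor FPKM in heart and 0.151% and 0.0429% in muscle.

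The voltage sensors followed the release channels. CACNA1C, the pore of the cardiac L-type calcium channel, had 14.2 and 10.4 FPKM in heart against 0.715 and 0.754 in muscle and was higher in heart, with a log2 change of 2.82 ± 0.30 (SE), adjusted p = 0.00104. CACNA1S, the skeletal voltage sensor, had 0.0136 and 0 FPKM in heart against 43 and 54 in muscle and was lower, with a log2 change of -5.72 ± 0.30 (SE), adjusted p = 4.08e-05. CACNG1, the skeletal gamma subunit, and MRLN, the micropeptide that inhibits the skeletal pump, were listed at 0 in every heart library, against 322 and 174 (CACNG1) and 567 and 1204 (MRLN) FPKM in muscle (adjusted p = 2.03e-05 and 1.38e-05). STAC3 and JSRP1, which link sensor and release channel in skeletal triads, had log2 changes of -6.92 and -7.30. SLC8A1, the sodium-calcium exchanger by which the heart expels calcium, had 119 and 117 FPKM in the WT2 heart libraries and 74.7 and 70.9 in the WT3 heart libraries. In muscle, SLC8A1 had 1.09 and 1.32 FPKM in the WT2 libraries and 0.872 and 1.01 in the WT3 libraries. SLC8A1 was higher in heart, with a log2 change of 5.40 ± 0.34 (SE), adjusted p = 9.06e-05.

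The calcium pumps and their inhibitors split in a less even way. ATP2A1, the pump of fast fibres, had 0.322 and 0.357 FPKM in the WT2 heart libraries and 0.287 and 0.243 in the WT3 heart libraries. In muscle, ATP2A1 had 1623 and 1575 FPKM in the WT2 libraries and 1466 and 1508 in the WT3 libraries. Its log2 change was -10.32 ± 0.29 (SE), adjusted p = 3.47e-06. ATP2A2, the pump of heart and slow fibres, had 465 and 249 FPKM in heart against 398 and 530.2 in muscle and did not pass (-0.54 ± 0.36 (SE), adjusted p = 0.516). Phospholamban, PLN, which restrains ATP2A2 until phosphorylated, had 868 and 859 FPKM in the WT2 heart libraries and 374 and 359 in the WT3 heart libraries. In muscle, PLN had 13.1 and 12.7 FPKM in the WT2 libraries and 12.9 and 12.5 in the WT3 libraries. PLN was higher in heart, with a log2 change of 5.25 ± 0.42 (SE), adjusted p = 0.00026. Sarcolipin, SLN, a related inhibitor known in adults of large mammals from slow muscle and atrium, had 1.39 and 1.68 FPKM in heart against 1646 and 1748 in muscle, a log2 change of -9.54 ± 0.29 (SE), adjusted p = 3.47e-06. The ratio of SLN to PLN was 0.000721, 0.0025, 0.0038 and 0.00537 in the heart libraries against 127, 129, 135 and 141 in the muscle libraries. PLN relative to the pump ATP2A2 was 1.9, 1.82, 1.49 and 1.45 in the heart libraries against 0.0334, 0.0313, 0.0243 and 0.0236 in the muscle libraries. CASQ2 and CASQ1, the cardiac and skeletal calcium stores, had log2 changes of 3.05 and -7.70, with CASQ1 at 3.02 and 2.3 FPKM in heart against 889 and 555 in muscle.

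The 2 genes of the cardiac list that were lower in heart were JPH2, which tethers the reticulum to the membrane, at 37.2 and 29.5 FPKM in heart against 93.9 and 95.5 in muscle (-1.59 ± 0.29 (SE), adjusted p = 0.0192), and STRIT1, a micropeptide that activates the pump, at 10.4 and 4.48 FPKM in heart against 211 and 154 in muscle (-4.63 ± 0.41 (SE), adjusted p = 0.000576). With any 1 of the 4 animal tissues left out, STRIT1 was called and JPH2 was not. Among 9 genes shared by both systems, 2 were lower in heart: triadin, TRDN, at 23.3 and 33.9 FPKM in heart against 137 and 103 in muscle, and the membrane calcium channel ORAI1 at 6.88 and 14.5 FPKM in heart against 39 and 53.2 in muscle. This count was 4 with the replicate block, and 0 without the WT2 heart or the WT2 muscle, 1 without the WT3 muscle.

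Ion channels of the surface membrane differed by gene family member. Of 15 cardiac electrical genes tested, 8 were higher in heart and 1 lower, with a median of 1.40, and the count of higher genes was 4 without the WT2 muscle or the WT3 muscle. KCNQ1 and KCNE1, the pore and the partner of the slow delayed rectifier, stood at 18.8 and 19.7 FPKM in heart against 1.33 and 0.216 in muscle (KCNQ1) and 3.07 and 1.51 FPKM in heart against 0.167 and 0.0406 in muscle (KCNE1), with log2 changes of 3.49 and 1.40. KCNIP2, the partner of the transient outward channel, had 8.99 and 10.7 FPKM in heart against 0.42 and 0.716 in muscle (2.69), and the T-type calcium channels CACNA1G and CACNA1H had log2 changes of 1.85 and 2.26. KCNJ12, an inward rectifier, was the lower one, at 1.56 and 2.32 FPKM in heart against 11.7 and 15.7 in muscle (-2.42 ± 0.32 (SE), adjusted p = 0.00402), and was not called without the WT2 heart or the WT3 muscle. KCNJ2, a related inward rectifier, had 7.3 and 12.1 FPKM in heart against 2.11 and 3.94 in muscle and did not pass (adjusted p = 0.0537).

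The pacemaker channels HCN4 and HCN2 were too low to test. HCN4 had 0.0902 and 1.42 FPKM in heart against 0.00747 and 0 in muscle and HCN2 1.31 and 2.02 FPKM in heart against 0.0415 and 0.0827 in muscle, each with a mean under 1 FPKM over the 8 libraries. On the skeletal side 6 of 8 genes tested were lower in heart. SCN4A, the sodium channel of skeletal fibres, had 0.219 and 0.451 FPKM in heart against 27.4 and 31.7 in muscle (-4.62 ± 0.30 (SE), adjusted p = 0.000121). CLCN1, the chloride channel that steadies the fibre membrane, had 0.0181 and 0.11 FPKM in heart against 5.64 and 13.4 in muscle (-3.31 ± 0.41 (SE), adjusted p = 0.00265), and KCNJ11, the pore of the ATP-sensitive channel, had 1.36 and 1.61 FPKM in heart against 42.3 and 68.2 in muscle (-4.57 ± 0.34 (SE), adjusted p = 0.000208). SCN4B and KCNN3 did not pass.

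Junctions between cardiac myocytes were higher in heart in 10 of 17 genes tested, with a median of 1.75 and none lower, though 1 was lower without the WT2 heart. CDH2, the cadherin of the intercalated disc, had 71.4 and 66.2 FPKM in the WT2 heart libraries and 34.9 and 34.1 in the WT3 heart libraries. In muscle, CDH2 had 0.267 and 0.199 FPKM in the WT2 libraries and 0.276 and 0.212 in the WT3 libraries. No muscle library reached 0.3 FPKM, and the log2 change was 5.22 ± 0.38 (SE), adjusted p = 0.000173. The desmosomal genes PKP2, DSP and DSC2 stood at 40.7 and 22 FPKM in heart against 0.135 and 0.0917 in muscle (PKP2), 16.4 and 11.9 FPKM in heart against 0.0672 and 0.0734 in muscle (DSP) and 7.96 and 3.56 FPKM in heart against 0.0336 and 0.0311 in muscle (DSC2). Their log2 changes were 4.69, 3.70 and 2.52. GJA1, the main ventricular gap junction protein, had 52.3 and 42.8 FPKM in heart against 20.5 and 8.69 in muscle (1.64 ± 0.42 (SE), adjusted p = 0.0392), and the atrial one, GJA5, had 3.79 and 4.15 FPKM in heart against 1.63 and 1.38 in muscle and did not pass. CXADR, LRRC10 and POPDC2, proteins of the disc or the cardiac Z-disc, had log2 changes of 3.07, 3.78 and 2.45. The count of higher genes was 6 without the WT2 heart or the WT3 muscle.

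Transcription factors of heart development were higher in heart in 12 of 21 tested, with a median of 1.56. GATA4, which activates cardiac contractile genes, had 30.6 and 34.5 FPKM in the WT2 heart libraries and 36.5 and 35.8 in the WT3 heart libraries. In muscle, GATA4 had 0.0442 and 0 FPKM in the WT2 libraries and 0.0452 and 0 in the WT3 libraries. The log2 change was 5.003 (adjusted p = 5.45e-05). GATA6 and TBX20 stood at 39.3 and 31 FPKM in heart against 0.489 and 0.216 in muscle (GATA6) and 30.4 and 20.8 FPKM in heart against 0.0159 and 0.0161 in muscle (TBX20), with log2 changes of 4.63 and 4.58. HAND2, another factor of heart development, had 21 and 51.7 FPKM in heart against 0.324 and 0.246 in muscle. Its relative HAND1 had 8.75 and 1.79 FPKM in heart against 0 and 0 in muscle. HAND1 was listed at 0 in both muscles and was higher in heart (adjusted p = 0.0319). IRX4, a ventricular factor, was also listed at 0 in muscle, with 16.5 and 14.4 FPKM in heart (adjusted p = 0.000172). MYOCD, the coactivator of serum response factor, had 5.71 and 7.4 FPKM in heart against 0.383 and 0.243 in muscle (2.41 ± 0.30 (SE), adjusted p = 0.00196). ISL1, a factor of the second heart field, was listed at 0 in every heart library.

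Regulators of skeletal myogenesis were lower in heart in 13 of 20 tested, with none higher and a median of -2.02. MYOD1, MYF5 and LBX1 were listed at 0 in all heart libraries, against 16.4 and 23.7 (MYOD1), 11.4 and 15.6 (MYF5) and 2.67 and 7.53 (LBX1) FPKM in muscle (adjusted p = 0.000173, 0.00026 and 0.0102). MYF6, the myogenic factor of mature fibres, had 0.256 and 0.601 FPKM in the WT2 heart libraries and 0.436 and 0.209 in the WT3 heart libraries. In muscle, MYF6 had 74.3 and 82.2 FPKM in the WT2 libraries and 79.8 and 82.1 in the WT3 libraries. It was the most abundant of the 4 MYOD family genes in muscle and lower in heart, with a log2 change of -5.99 ± 0.29 (SE), adjusted p = 2.67e-05. MYOG, which drives fusion and differentiation, had 0.264 and 0.184 FPKM in heart against 8.82 and 16.1 in muscle (-3.51 ± 0.35 (SE), adjusted p = 0.00102). TBX15, a factor of glycolytic fibres in the mouse, had 0 and 0.0367 FPKM in heart against 91.2 and 42 in muscle (-6.06 ± 0.40 (SE), adjusted p = 0.00013). PAX7, which marks satellite cells, was listed at 0 in heart and had 1.83 and 1.72 FPKM in muscle, under the level tested. MEF2C and MEF2D were lower in heart (-1.95 and -1.55), and MEF2A, at 52 and 26.2 FPKM in heart against 14.3 and 12.3 in muscle, did not pass (adjusted p = 0.0577). The count of lower genes was 8 without the WT2 heart, 7 without the WT3 heart, and 2 genes were higher with the replicate block or with libraries scaled to the same sum.

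Positional genes of the HOX clusters were lower in heart in 9 of 11 tested, with a median of -2.06. HOXC10, which is active in the caudal trunk and hindlimb of the mouse embryo, had 0.0891 and 0 FPKM in the WT2 heart libraries and 0 and 0 in the WT3 heart libraries. In muscle, HOXC10 had 21 and 19.2 FPKM in the WT2 libraries and 21.3 and 20.8 in the WT3 libraries. The log2 change was -4.50 ± 0.29 (SE), adjusted p = 0.000112. HOXD8, HOXD9 and HOXA5 stood at 0.21 and 0.124 FPKM in heart against 9.11 and 9.38 in muscle (HOXD8), 0.255 and 0.237 FPKM in heart against 9.23 and 7.23 in muscle (HOXD9) and 0.289 and 0.0757 FPKM in heart against 3.51 and 3.76 in muscle (HOXA5), with log2 changes of -3.23, -2.99 and -2.08. HOXA10, HOXC9 and HOXC11 were listed at 0 in all heart libraries, against 1.41 and 2.69 (HOXA10), 2.31 and 3.67 (HOXC9) and 2.18 and 3.63 (HOXC11) FPKM in muscle. The sum over the 24 genes of the list was 1.01 to 2.43 FPKM over the heart libraries and 67.1 to 70.5 FPKM over the muscle libraries. PITX1, a hindlimb factor in the mouse, had 5.22 and 0.467 FPKM in muscle and was listed at 0 in heart, without passing (adjusted p = 0.151). The lower calls numbered 6 to 10 when 1 animal was left out in 1 tissue.

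**Figure D3:**
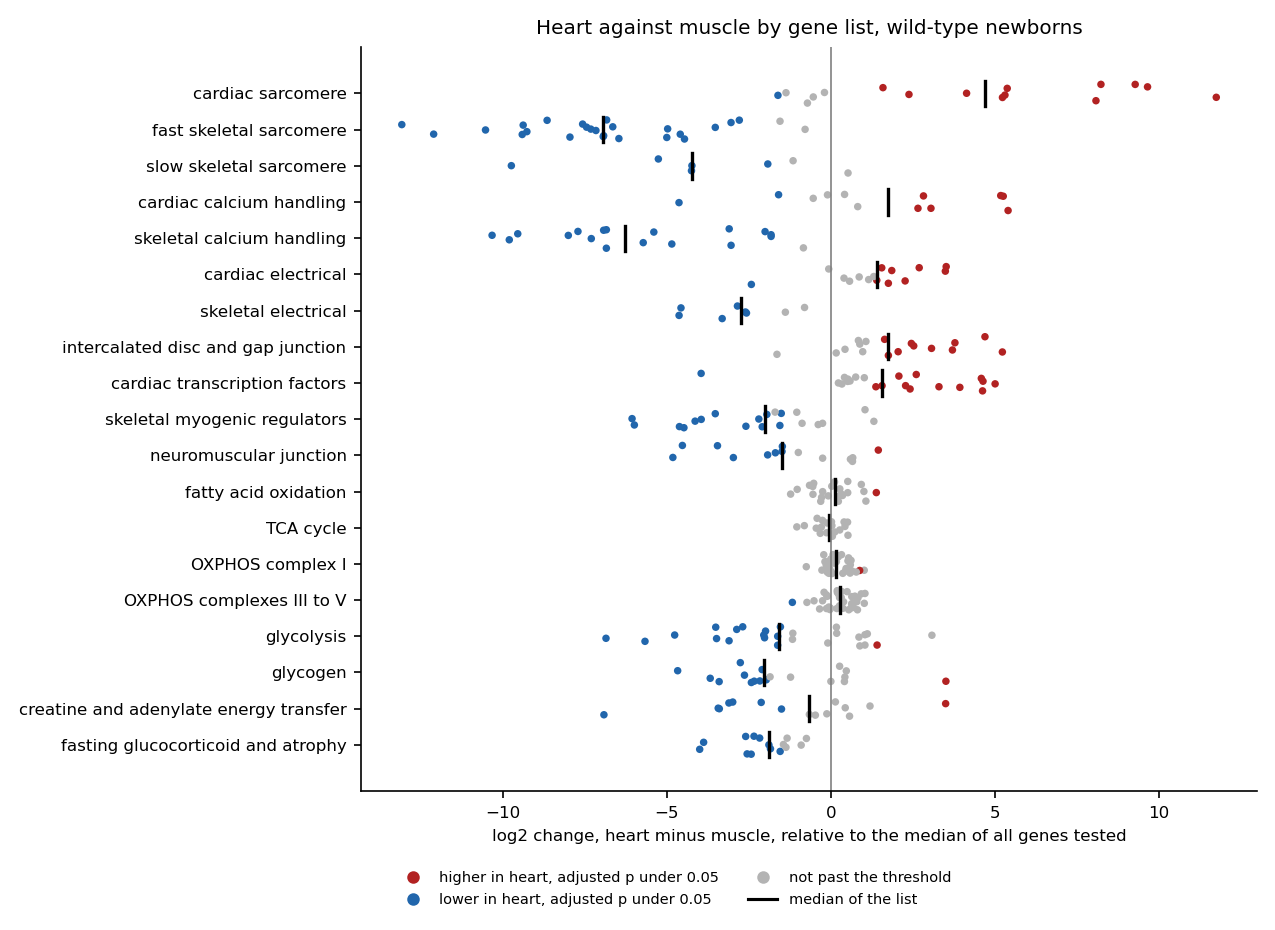
Each row is 1 of 19 gene lists, and each point is a gene at its log2 change (heart minus muscle, relative to the median of all genes tested), red where called higher in heart, blue where called lower and grey otherwise, with a black bar at the median of the list. The fast skeletal sarcomere and skeletal calcium lists have medians of -6.93 and -6.28, the cardiac sarcomere list 4.68, and the citric acid cycle and the 2 respiratory chain lists -0.05, 0.15 and 0.29.

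Genes of the neuromuscular junction were lower in heart in 8 of 14 tested, and fewer were called with any 1 animal tissue left out. CHRNA1, CHRNB1, CHRND, CHRNE and CHRNG, the subunits of the acetylcholine receptor, were all called. CHRNB1 was the most abundant, at 3.69 and 4.65 FPKM in heart against 50.8 and 51.6 in muscle (-3.45 ± 0.30 (SE), adjusted p = 0.000496). RAPSN, which clusters the receptor, had 0.726 and 0.164 FPKM in heart against 34.6 and 37.1 in muscle (-4.81 ± 0.32 (SE), adjusted p = 0.000133), and ACHE, which ends the signal, had 0.522 and 0.31 FPKM in heart against 30.9 and 27.5 in muscle (-4.52 ± 0.29 (SE), adjusted p = 0.000126). AGRN, the matrix signal for clustering, was higher in heart, at 46.1 and 43 FPKM in heart against 18.1 and 11.7 in muscle (1.45 ± 0.33 (SE), adjusted p = 0.0242), and was not called when any 1 animal tissue was left out, while the higher genes numbered 2 with libraries scaled to the same sum. DOK7, an activator of the clustering kinase, had 29.8 and 59.5 FPKM in heart against 17.5 and 37.1 in muscle and did not pass.

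Receptors for autonomic transmitters and hormones were higher in heart in 5 of 18 tested and lower in 2. CHRM2, the muscarinic receptor that slows the heart, was listed at 0 in every muscle library and had 3.19 and 5.84 FPKM in heart (adjusted p = 0.00402). ADRB1, a receptor for noradrenaline, had 1.99 and 6.37 FPKM in heart against 0.0781 and 0.0176 in muscle (2.06 ± 0.44 (SE), adjusted p = 0.0211). EDNRA, an endothelin receptor, had 58.7 and 20.2 FPKM in heart against 1.72 and 1.36 in muscle (3.71 ± 0.48 (SE), adjusted p = 0.00269), PDE3A, which degrades cyclic AMP, had 16.7 and 6.83 FPKM in heart against 2.29 and 2.49 in muscle (1.69), and RGS6, a brake on muscarinic signalling, had 3.98 and 2.66 FPKM in heart against 1.04 and 0.393 in muscle (1.24). AGTR1, an angiotensin receptor, was lower in heart, at 1.15 and 1.95 FPKM in heart against 16.5 and 21.7 in muscle (-3.09 ± 0.33 (SE), adjusted p = 0.00131). The count of higher genes was 3 without the WT2 heart, 2 without the WT2 muscle or the WT3 muscle, and that of lower genes was 1 without the WT2 heart or the WT3 heart or the WT2 muscle or the WT3 muscle.

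The list of secreted cardiac peptides and their processing had 5 of 8 genes tested higher in heart, not all of them for secreted products. NPPA, the atrial natriuretic peptide, was listed at 0 in all 4 muscle libraries and had 59.3, 66.9, 102.7 and 102.7 FPKM in the heart libraries (adjusted p = 4.08e-05). NPPB, the related peptide of the stretched ventricle, had 48.5 and 33.2 FPKM in the WT2 heart libraries and 28.8 and 31.8 in the WT3 heart libraries. In muscle, NPPB had 0.0669 and 0.145 FPKM in the WT2 libraries and 0 and 0 in the WT3 libraries. NPPB was higher in heart, with a log2 change of 4.99 ± 0.31 (SE), adjusted p = 7.64e-05. CORIN, the protease that activates both peptides, had 31.2 and 13.4 FPKM in heart against 2.61 and 0.84 in muscle (2.96 ± 0.48 (SE), adjusted p = 0.00745), and FGF12, an intracellular member of the fibroblast growth factor family that binds sodium channels, had 58.7 and 15.8 FPKM in heart against 0.263 and 0.294 in muscle (4.53 ± 0.55 (SE), adjusted p = 0.00201). The count was 3 without the WT2 heart or the WT3 muscle. Of 9 genes for proteins secreted by muscle, 4 were lower in heart (FNDC5, FST, MYOC and CHRDL1) and METRNL was higher. Myostatin, MSTN, which limits muscle growth, had 0.116 and 0 FPKM in heart against 6.86 and 0.965 in muscle and did not pass (adjusted p = 0.0868). FST, which binds myostatin, had 0.965 and 0.905 FPKM in heart against 9.89 and 4.29 in muscle (-2.08 ± 0.39 (SE), adjusted p = 0.0195). The 4 lower calls numbered 1 without the WT2 heart, 0 without the WT3 heart, 2 without the WT2 muscle. The higher calls numbered 0 without the WT3 heart or the WT2 muscle or the WT3 muscle, and 0 with quantile normalisation or equal medians.

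Atrial and ventricular markers were both present in the hearts. Of 7 ventricular genes tested, 5 were higher in heart (MYL3, IRX4, HEY2, LBH and PLN), and 3 were called with any 1 of the 4 animal tissues left out. Of 14 atrial genes tested, 6 were higher (MYL7, MYL4, NPPA, MYH6, KCNJ3 and TBX5), and SLN was among the 2 that were lower. MYL7 relative to MYL2 was 0.0707, 0.0725, 0.113 and 0.115 in the heart libraries against 0.000146, 0.000237, 0.000192 and 0.000246 in the muscle libraries. SLN, an atrial gene in adult hearts, was at 0.626 to 2.15 FPKM over the heart libraries. MYH6 relative to LOC102118628 was 0.0157, 0.016, 0.286 and 0.291 in the heart libraries against 0.00729, 0.00706, 0.00336 and 0.00393 in the muscle libraries. The WT3 heart was the higher one in both ratios. BMP10, secreted by the atrial wall, was listed at 0 in the WT2 heart and had a mean of 0.0259 FPKM in the WT3 heart.

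Few genes of the main pathways of oxidative metabolism were called. None of the 18 citric acid cycle genes tested was called, and their median log2 change was -0.05. Of 23 genes of fatty acid oxidation, 1 was higher in heart and none lower, with a median of 0.11. Of 38 complex I genes 1 was higher, with a median of 0.15, and of 38 genes of complexes III to V, with cytochrome c, 1 was lower, with a median of 0.29. These calls were lost when any 1 animal tissue was left out, and the counts of higher genes were 8 for complex I and 13 for complexes III to V with libraries scaled to the same sum. With the replicate block, 3 genes of fatty acid oxidation, 2 of complex I and 2 of complexes III to V were higher, and with equal medians none of complex I was. CPT1B, the gate of fatty acid entry into mitochondria, had 121 and 124 FPKM in the WT2 heart libraries and 111 and 105 in the WT3 heart libraries. In muscle, CPT1B had 33.6 and 31.7 FPKM in the WT2 libraries and 84.2 and 84.9 in the WT3 libraries. The WT3 muscle lay near the hearts and the WT2 muscle below them, and the log2 change of 1.01 ± 0.45 (SE), adjusted p = 0.174 did not pass. NDUFB1, a complex I subunit, had 2721 and 3369 FPKM in heart against 1570 and 1491 in muscle (0.88 ± 0.25 (SE), adjusted p = 0.0474), and ACOT13, a thioesterase, had 43.6 and 49.5 FPKM in heart against 15.8 and 16.1 in muscle (1.38 ± 0.29 (SE), adjusted p = 0.0181).

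Tissue-specific subunits of cytochrome oxidase were present in both tissues. COX7A1, the heart and muscle form of a small subunit, had 749 and 867 FPKM in the WT2 heart libraries and 859 and 886 in the WT3 heart libraries. In muscle, COX7A1 had 1626 and 1616 FPKM in the WT2 libraries and 1880 and 1939 in the WT3 libraries. COX7A1 was lower in heart, with a log2 change of -1.17 ± 0.25 (SE), adjusted p = 0.037. COX7A2, the form of other tissues, had 199 and 177 FPKM in heart against 96.1 and 75.3 in muscle and missed the threshold (log2 change 1.02 ± 0.29 (SE), adjusted p = 0.0501), and was called higher with the replicate block (adjusted p = 0.0230). COX6A2, another muscle form, had 570.5 and 871 FPKM in heart against 565 and 904 in muscle and did not pass. Myoglobin, MB, had 5776 and 3781 FPKM in heart against 6149 and 5533 in muscle and did not pass either (-0.43 ± 0.27 (SE), adjusted p = 0.518).

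Of 21 genes of fatty acid uptake and storage, 3 were higher in heart and 2 lower. FABP3, the fatty acid carrier of the cytosol, had 998 and 1241 FPKM in the WT2 heart libraries and 820.5 and 797 in the WT3 heart libraries. In muscle, FABP3 had 214 and 205 FPKM in the WT2 libraries and 351 and 351 in the WT3 libraries. FABP3 was higher in heart, with a log2 change of 1.70 ± 0.34 (SE), adjusted p = 0.0162. SLC27A6, a fatty acid transporter of the heart, had 109 and 28.9 FPKM in heart against 0.626 and 0.506 in muscle (5.09 ± 0.56 (SE), adjusted p = 0.00127), and CD36, the membrane fatty acid receptor, had 210.3 and 166 FPKM in heart against 91 and 78.8 in muscle (1.03 ± 0.29 (SE), adjusted p = 0.0497). PNPLA2 and DGAT2, which break down and make triglyceride, were lower in heart, at 59.6 and 43.3 FPKM in heart against 161 and 153 in muscle (PNPLA2) and 1.67 and 1.46 FPKM in heart against 32.2 and 6.5 in muscle (DGAT2), with log2 changes of -1.71 and -2.73. With the replicate block, 6 of the 21 genes were higher and 5 lower, and 6 were higher with libraries scaled to the same sum. The 3 higher calls numbered 1 without the WT2 heart or the WT3 heart or the WT2 muscle, and the 2 lower calls 1 without the WT2 heart or the WT3 muscle, 0 without the WT3 heart or the WT2 muscle.

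Ketone and branched-chain amino acid use were higher in heart in 4 of 10 genes, and the count was 1 without the WT2 heart or the WT2 muscle or the WT3 muscle, 2 without the WT3 heart. OXCT1, which activates ketone bodies for oxidation, had 49.1 and 43.5 FPKM in the WT2 heart libraries and 20.3 and 20.7 in the WT3 heart libraries. In muscle, OXCT1 had 2.08 and 2.36 FPKM in the WT2 libraries and 0.84 and 1.09 in the WT3 libraries. OXCT1 was higher in heart, with a log2 change of 3.56 ± 0.45 (SE), adjusted p = 0.00235. BDH1, the preceding enzyme, had 33.5 and 25.5 FPKM in heart against 8.77 and 12.5 in muscle (1.29 ± 0.33 (SE), adjusted p = 0.035), and BCKDHB and PPM1K, of the branched-chain keto acid dehydrogenase and its phosphatase, had log2 changes of 1.40 and 1.99.

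Pyruvate and lactate handling separated the tissues by isoform. LDHB, the lactate dehydrogenase subunit of oxidative tissues, had 1364 and 1406 FPKM in the WT2 heart libraries and 578 and 619.7 in the WT3 heart libraries. In muscle, LDHB had 99.5 and 90.3 FPKM in the WT2 libraries and 129.9 and 139 in the WT3 libraries. LDHB was higher in heart, with a log2 change of 2.90 ± 0.43 (SE), adjusted p = 0.00466. LDHA, the subunit of glycolytic fibres, had 55.4 and 24.5 FPKM in heart against 509 and 304 in muscle, a log2 change of -3.48 ± 0.45 (SE), adjusted p = 0.00335. The ratio of LDHB to LDHA was 24.4, 25.6, 24.1 and 24.8 in the heart libraries against 0.198, 0.175, 0.43 and 0.455 in the muscle libraries. The lactate exporter SLC16A3 had 14.8 and 18.8 FPKM in heart against 118 and 224 in muscle (-3.31 ± 0.38 (SE), adjusted p = 0.00196), and MPC1, which carries pyruvate into mitochondria, had 335 and 207 FPKM in heart against 55.3 and 61 in muscle (2.06 ± 0.33 (SE), adjusted p = 0.00634), while its partner MPC2, at 258 and 166 FPKM in heart against 158 and 186 in muscle, did not pass. The kinases that switch off pyruvate dehydrogenase split: PDK1 and PDK3 were higher in heart (1.48 and 1.99), and PDK2 and PDK4 lower (-1.45 and -2.96). PDK4, the kinase raised by fasting, had 151 and 139 FPKM in the WT2 heart libraries and 62.2 and 58 in the WT3 heart libraries. In muscle, PDK4 had 616 and 652 FPKM in the WT2 libraries and 737 and 723 in the WT3 libraries. It was the most abundant of the 4 in both tissues, with a share of their FPKM of 73.4% and 61.3% in heart against 91% and 91% in muscle. The 4 higher calls of the list numbered 2 without the WT2 heart, 0 without the WT2 muscle, 1 without the WT3 muscle, and the 4 lower calls 2 without the WT2 muscle or the WT3 muscle.

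Glycolysis was lower in heart in 14 of 26 genes tested, higher in 1, and had a median of -1.58. ALDOA, the muscle aldolase, had 608 and 677 FPKM in the WT2 heart libraries and 404 and 395 in the WT3 heart libraries. In muscle, ALDOA had 4236 and 4127 FPKM in the WT2 libraries and 3928 and 3896 in the WT3 libraries. ALDOA was lower in heart, with a log2 change of -3.10 ± 0.30 (SE), adjusted p = 0.000882. ENO3 and PGAM2, the muscle enolase and phosphoglycerate mutase, stood at 421 and 405 FPKM in heart against 2464 and 3201 in muscle (ENO3) and 193 and 213 FPKM in heart against 1319 and 1120 in muscle (PGAM2), with log2 changes of -2.87 and -2.69. Their widely expressed relatives ran the other way without passing: ENO1 had 203 and 146 FPKM in heart against 94.4 and 82.2 in muscle and PGAM1 45.7 and 32 FPKM in heart against 18.9 and 14.9 in muscle, and both were called higher in heart with the replicate block (adjusted p = 0.0463 and 0.0182). PFKFB3, which makes the activator of phosphofructokinase, had 4.81 and 3.58 FPKM in heart against 303 and 192 in muscle (-5.66 ± 0.34 (SE), adjusted p = 8.87e-05), and PFKFB1 had 0.0643 and 0 FPKM in heart against 14.3 and 42.9 in muscle (-4.76). FBP2, the muscle fructose bisphosphatase, had 0 and 0.246 FPKM in heart against 124 and 113 in muscle (-6.85 ± 0.30 (SE), adjusted p = 1.85e-05). PFKP, a phosphofructokinase of platelets and other tissues, was the higher gene, at 48.4 and 41.2 FPKM in heart against 12.4 and 18.1 in muscle (1.41 ± 0.32 (SE), adjusted p = 0.0247), while PFKM, the muscle form, had 161 and 72.7 FPKM in heart against 397 and 409 in muscle (-1.99). The insulin-regulated transporter SLC2A4 had 63.7 and 54.6 FPKM in heart against 150.3 and 172 in muscle (-1.54 ± 0.29 (SE), adjusted p = 0.0203). The 14 lower calls numbered 8 without the WT3 heart or the WT2 muscle, 9 without the WT3 muscle, and the higher ones numbered 7 with the replicate block and 7 with libraries scaled to the same sum. PFKP was not called with any 1 of the 4 animal tissues left out.

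Glycogen genes were lower in heart in 10 of 18 tested, higher in 1, with a median of -2.03. PYGM, the muscle phosphorylase, had 76.3 and 90.1 FPKM in the WT2 heart libraries and 56.6 and 53.1 in the WT3 heart libraries. In muscle, PYGM had 1618 and 1586 FPKM in the WT2 libraries and 1627 and 1634 in the WT3 libraries. PYGM was lower in heart, with a log2 change of -4.67 ± 0.30 (SE), adjusted p = 0.000124. PYGB, the brain phosphorylase, had 146 and 69.4 FPKM in heart against 6.85 and 7.93 in muscle and was higher, with a log2 change of 3.50 ± 0.40 (SE), adjusted p = 0.0014. The share of PYGB in the summed FPKM of PYGB and PYGM was 63.8% and 55.9% in heart against 0.426% and 0.484% in muscle. Phosphorylase kinase subunits PHKA1, PHKG1 and PHKB had log2 changes of -3.67, -2.76 and -1.97, and the synthetic genes GYS1, GYG1 and UGP2 of -2.42, -2.63 and -2.33. The lower calls numbered 5 without the WT3 heart or the WT3 muscle, 6 without the WT2 muscle.

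Phosphate transfer between adenylates and creatine was lower in heart in 7 of 15 genes tested. CKM, the cytosolic creatine kinase of muscle, had 2121 and 2273 FPKM in the WT2 heart libraries and 1510 and 1478 in the WT3 heart libraries. In muscle, CKM had 12211 and 11842 FPKM in the WT2 libraries and 14824 and 14933 in the WT3 libraries. CKM was lower in heart, with a log2 change of -2.99 ± 0.28 (SE), adjusted p = 0.000714, and was still 97.5% and 91.1% of the cytosolic creatine kinase FPKM of the heart. CKB, the brain form, had 55.7 and 146 FPKM in heart against 8.26 and 5.14 in muscle and was higher, with a log2 change of 3.50 ± 0.48 (SE), adjusted p = 0.00343, but was not called without the WT3 muscle. CKMT2, the mitochondrial form, had 509 and 364 FPKM in heart against 244 and 297 in muscle and did not pass. AMPD1, the muscle AMP deaminase, was listed at 0 in all heart libraries, against 110.4 and 112 FPKM in muscle (adjusted p = 1.49e-05), and ADSSL1, of the same purine cycle, had 53 and 27.1 FPKM in heart against 443 and 343 in muscle (-3.43 ± 0.38 (SE), adjusted p = 0.00163). GAMT, which makes creatine, had 27.6 and 23.3 FPKM in heart against 255 and 172 in muscle (-3.11 ± 0.32 (SE), adjusted p = 0.00118). The 7 lower calls numbered 4 without the WT2 heart or the WT3 heart, and the higher ones 2 with the replicate block and 3 with libraries scaled to the same sum.

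Among 25 regulators of mitochondria, 1 was higher in heart and 4 lower, and the lower count was 1 without the WT2 heart or the WT3 heart or the WT3 muscle, 2 without the WT2 muscle. UCP3, an inner membrane carrier of muscle, had 0 and 0 FPKM in the WT2 heart libraries and 0.051 and 0.0552 in the WT3 heart libraries. In muscle, UCP3 had 73.9 and 76.1 FPKM in the WT2 libraries and 154 and 152 in the WT3 libraries. UCP3 was lower in heart, with a log2 change of -6.82 ± 0.39 (SE), adjusted p = 6.09e-05. PERM1 and KLF15, regulators of oxidative genes and of amino acid use, stood at 24.2 and 37.1 FPKM in heart against 79.7 and 144 in muscle (PERM1) and 5.82 and 6.23 FPKM in heart against 20 and 16.2 in muscle (KLF15), with log2 changes of -1.91 and -1.54, and the calcium uniporter MCU had 3.19 and 2.95 FPKM in heart against 11 and 10.2 in muscle (-1.62). SLC25A5, a nucleotide carrier, was higher, at 95.3 and 94.3 FPKM in heart against 30.3 and 38 in muscle (1.35 ± 0.29 (SE), adjusted p = 0.0209). It was not called with any 1 of the 4 animal tissues left out, and the higher genes numbered 3 with the replicate block and 2 with libraries scaled to the same sum. SLC25A4, the abundant striated muscle form, had 2169 and 1419 FPKM in heart against 1257 and 1876 in muscle and did not pass. PPARGC1A, the coactivator of mitochondrial growth, had 28 and 11.7 FPKM in heart against 12.7 and 18.2 in muscle, and its log2 change of 0.13 did not pass (adjusted p = 0.794). Of 14 oxygen and redox genes, 1 was lower in heart and none higher. The lower one was GPX3, a secreted glutathione peroxidase, at 14.2 and 16.6 FPKM in heart against 58 and 70.2 in muscle (-2.09 ± 0.30 (SE), adjusted p = 0.00606), which was not called without the WT3 muscle. The higher genes numbered 4 with the replicate block, 6 with libraries scaled to the same sum and 1 without the WT3 heart.

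**Figure D4:**
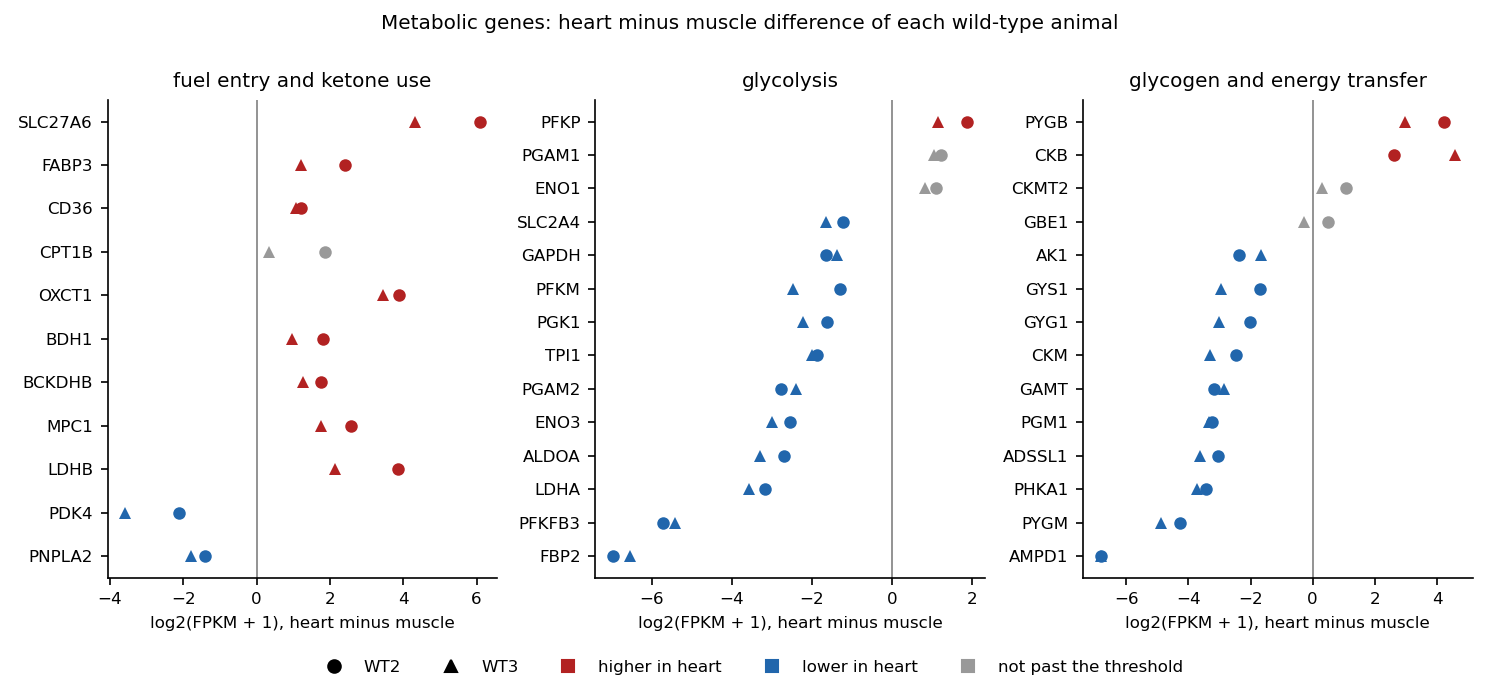
The 3 panels (fuel entry and ketone use, glycolysis, glycogen and energy transfer) give the heart minus muscle difference in log2(FPKM + 1) of each gene, as a circle for WT2 and a triangle for WT3, red where called higher in heart, blue where called lower and grey otherwise. OXCT1, LDHB, PYGB and CKB lie to the heart side in both animals, and FBP2, PFKFB3, PYGM and AMPD1 lie to the muscle side in both.

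Genes induced by fasting and glucocorticoids, including the ubiquitin ligases of muscle wasting, were lower in heart in 10 of 15 tested, with a median of -1.89. FBXO32, a ligase of muscle atrophy, had 5.27 and 5.82 FPKM in the WT2 heart libraries and 9.48 and 9.5 in the WT3 heart libraries. In muscle, FBXO32 had 109.8 and 110.2 FPKM in the WT2 libraries and 137 and 133 in the WT3 libraries. The log2 change was -4.00 ± 0.34 (SE), adjusted p = 0.000496. TRIM63, the other classical atrophy ligase, had 77 and 82.6 FPKM in heart against 375 and 547 in muscle (-2.60 ± 0.31 (SE), adjusted p = 0.00233), and FOXO1 and FOXO3, the factors that drive both, had log2 changes of -2.43 and -2.17. GLUL, glutamine synthetase, had 122 and 80.8 FPKM in heart against 1653 and 1137 in muscle (-3.88 ± 0.33 (SE), adjusted p = 0.000496). The lower calls numbered 5 without the WT2 heart or the WT3 muscle, 6 without the WT3 heart, 4 without the WT2 muscle. FKBP5, PER1 and TSC22D3, targets of the glucocorticoid receptor, stood at 24 and 13.6 FPKM in heart against 56.3 and 39.7 in muscle (FKBP5), 40.5 and 36.9 FPKM in heart against 92 and 50.2 in muscle (PER1) and 56.1 and 87.6 FPKM in heart against 204 and 141 in muscle (TSC22D3), and none of them passed.

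Markers of other cell types differed in part, and their part in the results above was not tested. The 12 macrophage markers tested summed to 139 to 208 FPKM over the heart libraries and 62.9 to 118 over the muscle libraries. None was called, and 5 were higher in heart with the replicate block and 5 with libraries scaled to the same sum. Of 13 endothelial markers 2 were higher in heart (KDR and TEK), with sums of 439 to 611 FPKM in heart and 310 to 344 in muscle. Of 14 fibroblast markers, TCF21 and POSTN were higher and COL1A1 and COL3A1 lower, and the sums were 1407 to 2685 FPKM in heart and 3889 to 7013 in muscle. TCF21, a factor of cardiac fibroblasts and epicardium, had 19.6 and 35.6 FPKM in heart against 0 and 0.0877 in muscle (4.61 ± 0.36 (SE), adjusted p = 0.000208). Smooth muscle markers SMTN and RGS5 were higher in heart (1.08 and 1.37), of 10 tested. Erythroid markers HBB, HBZ and ALAS2 were higher in heart, of 7 tested, and the 10 of the list summed to 3509 to 5609 FPKM in heart and 1060 to 1127 in muscle. Schwann cell genes MBP and PRX, of myelin, were lower in heart, with PRX at 0.539 and 0.564 FPKM in heart against 12.4 and 14.2 in muscle (-3.32 ± 0.29 (SE), adjusted p = 0.00054). Fat cell genes ADIPOQ, CIDEA and GPD1 were lower in heart, of 9 tested, and AQP7 was higher but was not called with any 1 animal tissue left out, and LEP and CIDEC were listed at 0 in all heart libraries. ADIPOQ had 0.308 and 0 FPKM in heart against 35.2 and 6.12 in muscle. Other counts changed by over 1.5 times when 1 animal tissue was left out: the endothelial and smooth muscle counts were 0 with any 1 of the 4 left out, the erythroid count was 0 without the WT3 heart or the WT3 muscle, 1 without the WT2 muscle, and the lower fat cell count was 1 without the WT2 heart or the WT3 heart, 6 without the WT3 muscle. The higher fibroblast count was 1 with any 1 of the 4 left out, and the lower one was 1 without the WT2 heart, 0 without the WT3 heart or the WT2 muscle or the WT3 muscle. With the replicate block, the higher smooth muscle and erythroid counts were 4 and 5, and the lower fibroblast and fat cell counts 4 and 7. The higher smooth muscle and erythroid counts were also 4 and 5 with libraries scaled to the same sum.

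One muscle stood apart in tendon genes. TNMD, a marker of tendon cells, had 0.466 and 0.582 FPKM in the WT2 heart libraries and 0.487 and 0.63 in the WT3 heart libraries. In muscle, TNMD had 89.8 and 95.3 FPKM in the WT2 libraries and 0.745 and 0.33 in the WT3 libraries. FMOD, THBS4 and COMP, of tendon and cartilage matrix, stood at 23.9 and 24.4 FPKM in heart against 202 and 1.01 in muscle (FMOD), 7.98 and 12.1 FPKM in heart against 124 and 3.24 in muscle (THBS4) and 1.2 and 2.64 FPKM in heart against 56.8 and 0 in muscle (COMP). Both WT2 muscle libraries were high and both WT3 muscle libraries were low. None of 6 tendon and cartilage genes was called. Without the WT3 muscle 5 were called lower in heart, without the WT2 muscle 1 was called higher, and with the replicate block 1 was lower. COL1A1, the main fibrillar collagen, was at 3057 and 1514 FPKM in the WT2 and WT3 muscles.

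Many of the isoforms were near absent from the brain, thymus, liver, lung and kidney of the same animals. Of all 12247 genes tested 266 (2.17%) were under 1 FPKM in all of these, as were 39 of the 637 higher in heart (6.12%) and 111 of the 696 lower in heart (15.9%). Among fast skeletal sarcomere genes the number was 14 of 26, among developmental skeletal genes 7 of 9, and among cardiac sarcomere genes 6 of 16. MYL7 reached 8.11 FPKM in the WT2 lung, TNNI3 14.3 FPKM in the WT3 brain and ACTC1 6.38 FPKM in the WT2 kidney, all far under their heart levels. Of the 38 complex I genes, none was higher in another tissue than in both heart and muscle, while for the 26 glycolysis genes this held for 12. The other tissues entered by their highest single animal mean, and heart and muscle by the mean over both animals. The share over all genes tested was not computed, so these counts have no background to be read against. DEFB1, an epithelial defensin and the strongest gene towards heart outside the lists, had 235 and 314 FPKM in the WT2 heart libraries and 56.1 and 68.2 in the WT3 heart libraries. In muscle, DEFB1 had 0.613 and 1.35 FPKM in the WT2 libraries and 4.59 and 2.19 in the WT3 libraries. The log2 change was 5.41 ± 0.68 (SE), adjusted p = 0.00243, and DEFB1 reached 2951 FPKM in the WT2 kidney. Towards muscle, CA3, a carbonic anhydrase of slow fibres, had 0.126 and 0 FPKM in heart against 1452 and 925 in muscle (-10.20 ± 0.33 (SE), adjusted p = 4.95e-06), and PPP1R27, a phosphatase regulator, was listed at 0 in heart, against 333 and 507 FPKM in muscle (adjusted p = 8.24e-06).

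The newborns titled KO2 and KO3 gave a second comparison of heart with muscle that shares no library with the first. SIRT6 itself had 7.73 and 9.33 FPKM in the KO2 heart libraries, 12.3 and 12.5 in the KO3 heart libraries, 5.35 and 4.62 in the KO2 muscle libraries and 8.995 and 8.62 in the KO3 muscle libraries. The wild-type values were 7.32 and 5.497 in the WT2 heart, 7.67 and 8.91 in the WT3 heart, 8.73 and 7.52 in the WT2 muscle and 8.42 and 8.29 in the WT3 muscle. The ranges overlap, so the level of SIRT6 mRNA does not separate the libraries labelled KO from those labelled WT, and the groups are named by those labels only. Pairs of KO values are animal means in the order KO2, KO3.

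In the libraries labelled KO, 792 of 12432 genes (6.37%) differed between heart and muscle, 420 higher in heart (3.38%) and 372 lower (2.99%). Of the 1333 genes called in WT, 1260 were tested in KO. Of these, 1207 (95.8%) had the same sign, against 64.8% of the genes not called in WT and 68.2% of all 11716 genes tested in both. The same call was made in KO for 515 (40.9%), against 2.12% of the others. Among the sarcomere lists, 23 of 26 fast skeletal genes and 11 of 16 cardiac sarcomere genes were called in KO, the first lower and the second higher in heart, and 15 of 17 skeletal calcium genes were lower. TNNI3 had 7256 and 5225 FPKM in KO heart against 1.01 and 0.342 in KO muscle, and its log2 change was 11.86 (adjusted p = 9.24e-08). FHL2 had 159 and 245 FPKM in KO heart against 8.11 and 22.4 in KO muscle, a log2 change of 3.73 in KO against 6.05 in WT, and the difference, -2.34, did not pass (adjusted p = 0.124).

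Other lists had other counts in KO. Of 15 fasting and atrophy genes, none was called in KO, against 10 in WT, with medians of -0.27 and -1.89. FBXO32 had 5.71 and 18.7 FPKM in KO heart against 4.64 and 31.6 in KO muscle, and PDK4 4.17 and 17 FPKM in KO heart against 3.98 and 35.7 in KO muscle. Of the glycolysis genes 4 were higher and 4 lower in KO, with a median of -0.24, against 1 and 14 in WT. Of the respiratory chain genes, 12 of 38 in complex I and 17 of 38 in complexes III to V were higher in heart in KO, with medians of 1.23 and 1.36, against 1 and 0 in WT. All 76 of them had a log2 change above 0 in KO. In WT this held for 26 of the 38 in complex I and 25 of the 38 in complexes III to V. A test of the difference itself, KO minus WT of the heart minus muscle change, called 5 of 12447 genes (0.0402%), 3 of them higher in KO (0.0241%) and 2 lower (0.0161%), with 1770 at an unadjusted p under 0.05. None of the fasting, glycolysis or respiratory chain genes was among the 5, so that a difference between the genotypes in these lists was not shown gene by gene.

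The 5 genes were UCP3, MYH1 and CASQ1, with less negative changes in KO, and MYH3 and LOC101866646, with more negative ones. UCP3 had 0.049 and 0.0975 FPKM in the KO2 heart and 0 and 0.033 in the KO3 heart, against 0.286 and 0.322 in the KO2 muscle and 0.463 and 0.6 in the KO3 muscle, where WT muscle held 75 and 153. The difference was 6.33 (adjusted p = 0.00825). MYH1 had 9.69 and 4.67 FPKM in KO heart against 35.1 and 37.3 in KO muscle, a difference of 5.63 (adjusted p = 0.0231), and CASQ1 had 14.2 and 17.5 FPKM in KO heart against 248 and 256 in KO muscle, a difference of 3.73 (adjusted p = 0.0344). MYH3 had 0.00864 and 0.0102 FPKM in KO heart against 468 and 306 in KO muscle, where WT muscle held 14.2 and 4.16, and a difference of -5.39 (adjusted p = 0.0344). LOC101866646, which has no symbol in the RefSeq table, had 115 and 115 FPKM in the KO2 heart and 132 and 133 in the KO3 heart, against 5933 and 6130 in the KO2 muscle and 3314 and 3417 in the KO3 muscle, a difference of -4.85 (adjusted p = 0.0344). In WT its libraries lay between 85.3 and 135.7 FPKM in both tissues. With quantile normalisation, with equal medians or with a trend on the mean difference, UCP3 was the 1 gene called, and none was with no level filter. The number was 6 with libraries scaled to the same sum, 11 without a trend, 14 with a pseudocount of 0.1 and 16 with a filter at 5 FPKM. It was larger when 1 animal was left out. The trend setting used for this test was itself settled after the data were seen.

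KO muscle was not tested directly against WT muscle here, and the shares are given as values. MYH3 made up 34.8% and 15.1% of the heavy chain FPKM in KO2 and KO3 muscle and MYH8 14.7% and 54.8%, where in WT muscle they made up 0.479% and 0.151% and 3.1% and 1.96%. MYH1 made up 2.61% and 1.83% in KO muscle and 41.2% and 20.7% in WT muscle. CASQ1 stood at 14.2 and 17.5 FPKM in the KO hearts and 3.02 and 2.3 FPKM in the WT hearts.

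**Figure D5:**
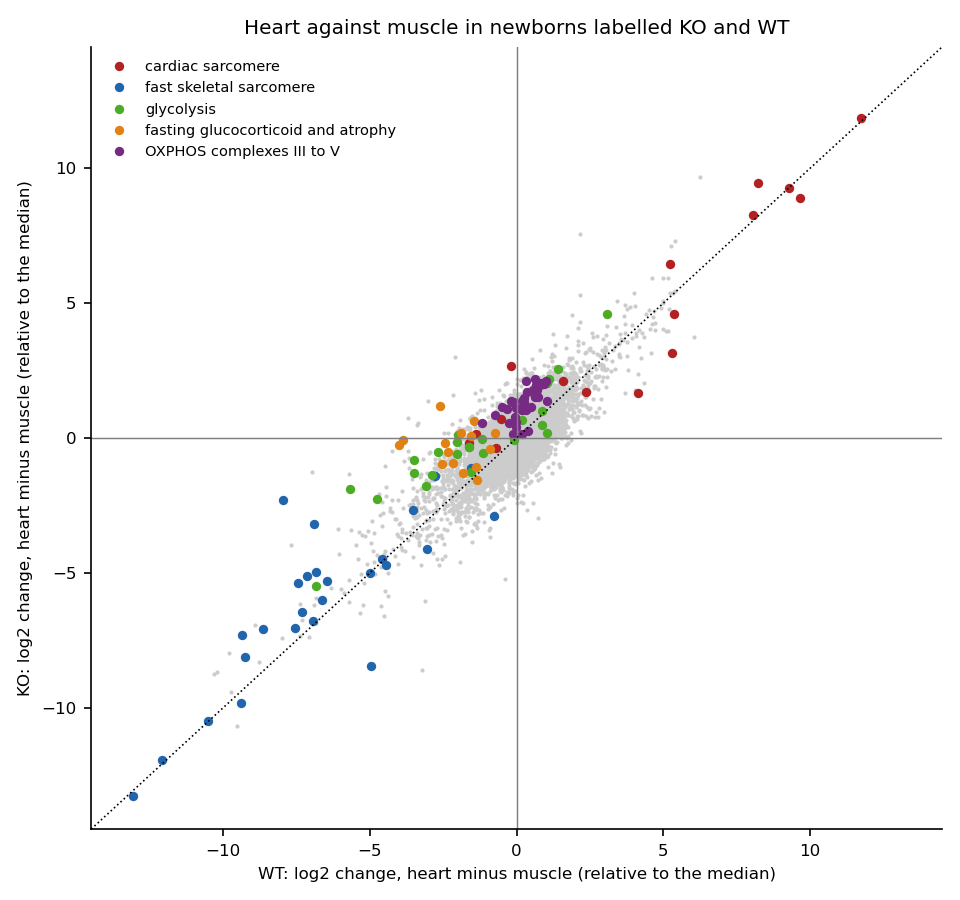
Each grey point is a gene tested in both, with its log2 change (heart minus muscle, relative to the median) in WT on the horizontal axis and in the libraries labelled KO on the vertical axis, and coloured points are the members of 5 lists around the dotted line of equal change. The fasting and atrophy genes lie nearer to 0 in KO, with medians of -0.27 in KO and -1.89 in WT, and the genes of complexes III to V lie higher, with medians of 1.36 in KO and 0.29 in WT.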

How the data were processed

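RNA from newborn heart and muscle was sequenced on Illumina HiSeq instruments after TRIzol and RNeasy extraction and TruSeq library preparation, per the labels' protocols. The authors deposited FPKM values per gene, made with Cufflinks 2.0.2, HISAT 0.1.6 and CASAVA among the tools listed in the submitters' processing notes. Build, annotation and strandedness: not given in the sources used here. Gene identifiers without a symbol were matched to RefSeq, which named 721 of 11294. Levels were taken as log2(FPKM + 1), repeat libraries of an animal were averaged, genes with a mean of 1 FPKM or more were kept, and heart was compared with muscle in limma 3.58.1 (under R 4.3.3, eBayes trend on), with Benjamini-Hochberg adjustment over all genes tested. Whole reads could not be recovered, so no count model was run. With 2 animals per tissue, SE and p-values rest on a variance that limma moderates across genes, and not on each gene's own spread alone. The replicate numbers name the same animals in both tissues, and the WT2 deviations of heart and muscle correlated at r = 0.287 over 12247 genes. The main fit of heart against muscle left this pairing out and treated the tissues of an animal as independent. The code was tested on simulated data. Named genes were the 12 largest called changes with a symbol in each direction, the isoform families, and list members by role, up to 6 by smallest p with those that go against their list; members named without passing were chosen after their values were seen. The members and lists were chosen with earlier results of these data known. Alternatives included the pseudocount, filter, scaling, the replicate block and leaving out animals or libraries. ACADVL, MYH7, NKX2-5 and other list members absent under their symbols were not analysed here, nor were the libraries of older animals, and some genes that the naming rule took are not reported here.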

Additional observations from a re-analysis of the deposited data

Results flagged for a closer look

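The heart minus muscle change differed between the animals labelled KO and WT in 5 genes by limma's test of the difference. UCP3 had a KO minus WT difference of 6.33, with heart minus muscle differences of -0.28 in KO2 and -0.59 in KO3, against -6.25 in WT2 and -7.19 in WT3. MYH1 had a difference of 5.63, with -1.76 and -2.76 in KO2 and KO3, against -8.19 and -7.49 in WT2 and WT3. CASQ1 had a difference of 3.73, with -4.04 and -3.80 in KO2 and KO3, against -7.79 and -7.40 in WT2 and WT3. MYH3 had a difference of -5.39, with -8.86 and -8.25 in KO2 and KO3, against -3.89 and -2.34 in WT2 and WT3. LOC101866646 had a difference of -4.85, with -5.70 and -4.66 in KO2 and KO3, against 0.07 and -0.63 in WT2 and WT3.

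GPX3 was called in opposite directions, higher in heart in KO and lower in heart in WT, and its difference of 5.08 missed the threshold (adjusted p = 0.059, limma). Its libraries held 123.3 to 187.6 FPKM in KO heart and 9.91 to 32 FPKM in KO muscle, against 13.9 to 16.6 FPKM in WT heart and 57.8 to 72.7 FPKM in WT muscle.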

How the results depend on the processing

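For WT heart against muscle, the calls numbered 133 higher and 261 lower with no level filter, 375 higher with a filter at a mean of 5 FPKM, 1322 higher with libraries scaled to the same sum, 2844 and 1993 with libraries as replicates, 1033 higher with duplicateCorrelation, 1310 and 1109 with the replicate block, and 1109 higher in 1 fit of 7 tissues. Leaving out 1 animal or 1 library gave 163 to 630 higher and 263 to 698 lower. For KO, the calls numbered 41 and 60 with no level filter, 2116 and 1383 with libraries as replicates, and 1480 and 1251 with the replicate block, and 356 to 630 lower with 1 animal or library left out, the highest without the KO2 muscle. The count for the KO minus WT difference was 14 with a pseudocount of 0.1, 0 with no level filter, 16 with a filter at 5 FPKM, 1 each with quantile normalisation, with equal medians and with a trend on the mean difference, 11 without a trend, and 20 to 55 with 1 animal left out; the trend settings were chosen after seeing the data. The cause was not tested.

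Of the 180 genes taken by the naming rule and called in WT, 98 kept direction and call under every alternative run, 82 lost the call under at least 1, and 0 changed sign. Among genes that were not called, quantile normalisation turned TNNC1 to 0.22, PFKL to 0.018 and COX6A2 to 0.17. With 1 animal or library left out, the change ranged from -0.076 to 0.69 for MYL2, -0.74 to 0.11 for TNNC1, -0.48 to 0.81 for HK2, -0.43 to 0.24 for PFKL, -0.15 to 0.54 for COX6A1, -0.44 to 0.19 for COX6A2, -0.21 to 0.40 for SLC25A4 and -0.52 to 0.29 for AMPD2. FPKM without read depth gives no counting error for low genes.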

Other observations

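Of 20 tested genes of the dystrophin complex, which ties the fibre to its matrix, 17 were not called, where 10.9% of all genes tested were called. ITGA7 was higher in heart and SGCA and SNTB1 were lower. The higher count was 0 with any 1 of the 4 animal tissues left out or with equal medians, and 2 with the replicate block, with libraries scaled to the same sum or with quantile normalisation. The lower count was 1 without the WT2 heart, the WT3 heart or the WT2 muscle, and 4 with the replicate block. SGCA, a sarcoglycan, stood at 41.1 and 25.0 FPKM in the WT2 and WT3 hearts, against 178 and 185 FPKM in the WT2 and WT3 muscles. Of 13 cell cycle genes tested, CDK1 and UBE2C were higher in heart, with CDK1 at 3.91 and 2.97 FPKM in heart and 1.07 and 0.534 FPKM in muscle, and the count was 0 or 1 with 1 animal tissue left out, 5 with the replicate block and 4 with libraries scaled to the same sum. Of 19 immediate early and heat shock genes, FOSB was lower in heart, at 0.881 and 0.288 FPKM in heart and 25.2 and 5.62 FPKM in muscle, and the lower count was 7 with the replicate block, 0 without the WT2 heart or the WT3 heart, and 2 without the WT3 muscle or with libraries scaled to the same sum. None of the 19 was higher, against 1 with the replicate block and 3 with libraries scaled to the same sum. CD79B, of B cells, and WT1, of the epicardium, were the tested members of their lists and were higher in heart, with WT1 listed at 0 in muscle. The list of CD79B had no call without the WT3 heart, the WT2 muscle or the WT3 muscle, and the list of WT1 had none without the WT2 muscle or the WT3 muscle.

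Among identifiers without a symbol, LOC102116369 and LOC102134481 had log2 changes of 5.16 and 5.001 towards heart, and LOC102132074 and LOC102135323 of -8.92 and -7.09 towards muscle.

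Some list members differed more between the animals than most, and are given as values. G0S2, which inhibits lipolysis, stood at 9.63 and 55.9 FPKM in the WT2 and WT3 hearts and at 31 and 8.89 FPKM in the WT2 and WT3 muscles. PLIN5, a lipid droplet protein, stood at 30.4 and 10.3 FPKM in the hearts and at 14.3 and 51.9 FPKM in the muscles. FLNC, a muscle filamin, stood at 181 and 33.3 FPKM in the hearts and at 195 and 274 FPKM in the muscles.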
